A study of Mus musculus with 9 samples.

Results

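Genes of endothelial cells, which line blood vessels, and of mural cells, the pericytes and smooth muscle cells on the outer side of the vessel wall, were followed in layer IV of the mouse barrel cortex. The set held 38 genes, 29 endothelial and 9 mural, and every probe set whose platform symbol was 1 of them was taken. The array carried 61 probe sets for 37 of these genes, and Ly6a was not analysed here. Of the 37 genes, 27 (22 endothelial and 5 mural) had a probe set among the brighter 60% by mean signal over all arrays and were tested, together with the other genes of the array that met this limit (8503 of 12393 genes). Layer IV was cut out by laser from C57BL/6 mice of 3 Gap43 genotypes, wild type (WT), heterozygote (HZ) and knockout (KO), all at postnatal day 5. The Gap43 protein, GAP-43, is a membrane phosphoprotein of growing axons. Each of the 9 mice gave 1 Affymetrix array, 3 per genotype, and the RNA passed through 2 cycles of cDNA synthesis before labelling. The labels refer to an earlier publication for how the lines were made and do not say which stretch of Gap43 is deleted or which litters the mice came from. With 3 arrays a genotype, precision is limited throughout. A dissected layer holds all of its cell types, so that fewer vessel cells and less RNA per vessel cell cannot be told apart.

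In the brain, endothelial cells joined by tight junctions form the blood-brain barrier, and specific transporters carry glucose, hormones and other solutes across it or pump foreign compounds back into the blood. Vessels grow into the cortex from its surface under signals such as vascular endothelial growth factor, which acts on endothelial receptors. Endothelial cells release platelet-derived growth factor B, which draws in pericytes that carry its receptor, and pericytes support the barrier. During the first postnatal weeks the capillary network of the rodent cortex is still expanding.

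The stretch around the transcription start is shown for the 3 genes that came lowest in KO at an unadjusted p below 0.05, as described further on. Each run has 300 bases, 250 before and 50 after the start, read 5′ to 3′ on the gene's strand from RefSeq on GRCm38.p6. Capitals mark GC boxes, the GGGCGG motif bound by Sp1-type factors, found on either strand. Slc2a1 lies at chr4:119108495-119108794 on the plus strand, Slco1c1 at chr6:141524104-141524403 on the plus strand and Sparc at chr11:55420031-55420330 on the minus strand.
Slc2a1: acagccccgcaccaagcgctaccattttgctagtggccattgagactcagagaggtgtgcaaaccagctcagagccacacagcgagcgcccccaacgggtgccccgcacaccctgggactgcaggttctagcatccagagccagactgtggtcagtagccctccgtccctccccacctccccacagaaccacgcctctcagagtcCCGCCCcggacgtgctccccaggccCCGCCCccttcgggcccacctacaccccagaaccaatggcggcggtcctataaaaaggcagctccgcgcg
Slco1c1: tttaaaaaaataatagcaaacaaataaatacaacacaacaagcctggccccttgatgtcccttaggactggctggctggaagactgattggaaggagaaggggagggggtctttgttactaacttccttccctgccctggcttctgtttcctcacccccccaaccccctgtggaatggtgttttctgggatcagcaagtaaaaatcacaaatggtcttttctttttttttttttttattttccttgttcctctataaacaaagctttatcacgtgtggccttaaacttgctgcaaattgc
Sparc: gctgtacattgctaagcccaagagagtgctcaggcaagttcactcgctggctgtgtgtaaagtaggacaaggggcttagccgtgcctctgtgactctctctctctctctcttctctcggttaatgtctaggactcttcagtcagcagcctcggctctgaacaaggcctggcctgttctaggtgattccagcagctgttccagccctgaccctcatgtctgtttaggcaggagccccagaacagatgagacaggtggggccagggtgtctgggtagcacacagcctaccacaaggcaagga
The Slc2a1 window held 2 GC boxes, and the windows of Slco1c1 and Sparc held none. Their G and C content was 65.3%, 42% and 55.3%. RefSeq windows were found for 25 of the 38 genes, 31 windows in all, and 15 of these (48.4%) held a GC box against 35.7% of the 32851 windows of all genes. The letters CCGGAA, a core motif of ETS factors such as Ets1 and Erg, stood on either strand in 1 of the 31 windows (3.23%, that of Kdr) against 14.9% of all windows. ACAATG, a motif of SOX factors such as Sox17 and Sox18, stood in 3 of them (9.68%) against 12.6%. These matches describe letters in a short window and show no binding.

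Some facts of the arrays bear on the values. The probe set of Gap43 lay between 4294 and 7089 on WT arrays, between 4389 and 5039 on HZ arrays and between 979 and 1930 on KO arrays. No other probe set passed the adjusted threshold between KO and WT (limma adjusted p = 0.0173 for Gap43) or between KO and HZ (0.0362), and Gap43 did not pass between HZ and WT (0.915). All 12 neuron markers on the array passed the limit on dim signals. Rorb, a transcription factor of layer IV neurons, was read at 541, 460 and 589 in WT, 709, 518 and 601 in HZ and 325, 356 and 302 in KO. Every KO array of Rorb was below every WT and every HZ array. Against WT this held for 1 of the 12 neuron markers, while 3 had every KO array above every WT array. The part of layer IV content in the vessel values was not tested. Sex-linked transcripts placed 2 females and 1 male in each genotype, and WT 3, HZ 1 and KO 1 were the males. The ratio of 3′ to 5′ signal of the control transcript of Gapdh was 27.9 on HZ 2 and 11.5 to 19.5 on the other arrays.

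Not all transcripts that define vessel cells were above the limit on dim signals. Cldn5, the claudin of endothelial tight junctions, was read at 684, 830 and 984 in WT, 873, 560 and 637 in HZ and 702, 487 and 873 in KO. Pecam1, an adhesion molecule of all endothelial cells, was dim, at 27, 44 and 87 in WT, 35, 80 and 103 in HZ and 69, 34 and 40 in KO. Both sets of groups overlapped, and no genotype stood apart. Tie1, an endothelial receptor, was at 2.97 to 17.3 over the 9 arrays, near the bottom of the scale, whereas Cdh5, the cadherin of endothelial junctions, which was not one of the 38 genes, was read at 90.1 to 177. Among mural transcripts, the contractile gene Tagln was at 6.81 to 18.6, and Myh11 and Cnn1, smooth muscle genes outside the set, at 11.9 to 52.6 and 9.39 to 24.7. Smooth muscle was represented among the tested genes by Acta2 alone, whose probe set carries the suffix _s_at, given to probes that can match several transcripts. The 10 genes left out as dim were Tie1, Tagln, Erg, Icam2, Mcam, Anpep, Pecam1, Abcc9, Myl9 and Vwf. Vwf, just outside the limit, had a geometric mean of 99.8, and Emcn, just inside, one of 123.6.

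Between KO and WT, most vessel genes had a lower mean in KO, by small amounts, and none passed the threshold. Of the 22 endothelial genes 16 were lower and 6 higher in KO, with a median log2 change of -0.15, and of the 5 mural genes 4 were lower, with a median of -0.07. Each gene is counted here and below by its brightest probe set. A log2 change is the difference between 2 genotype means of log2(signal + 16), and the adjusted p comes from a limma model of all 9 arrays, corrected over 13576 probe sets. Over all 8503 genes 46.4% were lower and the median was 0.02. The members were chosen with earlier results of these data known, so shares of all genes, here and below, serve as description only. No member passed the adjusted threshold of 0.05 in limma, where the smallest adjusted p was 0.537 and 0.0118% of all genes passed. At an unadjusted p below 0.05 there were 3 lower members (Slco1c1, Slc2a1 and Sparc) and 0 higher ones, against 3.74% and 4.41% of all genes. All KO arrays lay below all WT arrays for 5 members, Emcn, Slco1c1, Slc2a1, Sparc and Vtn, and above them for none, against 6.21% and 7.8% of all genes. With the dim genes taken in, 27 of the 37 were lower in KO, against 45.2% of all genes on the array. The endothelial median depended on 1 array and was -0.06 without KO 2, and the mural median turned to 0.02 without WT 2 and to 0.04 without KO 2.

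**Figure D1:**
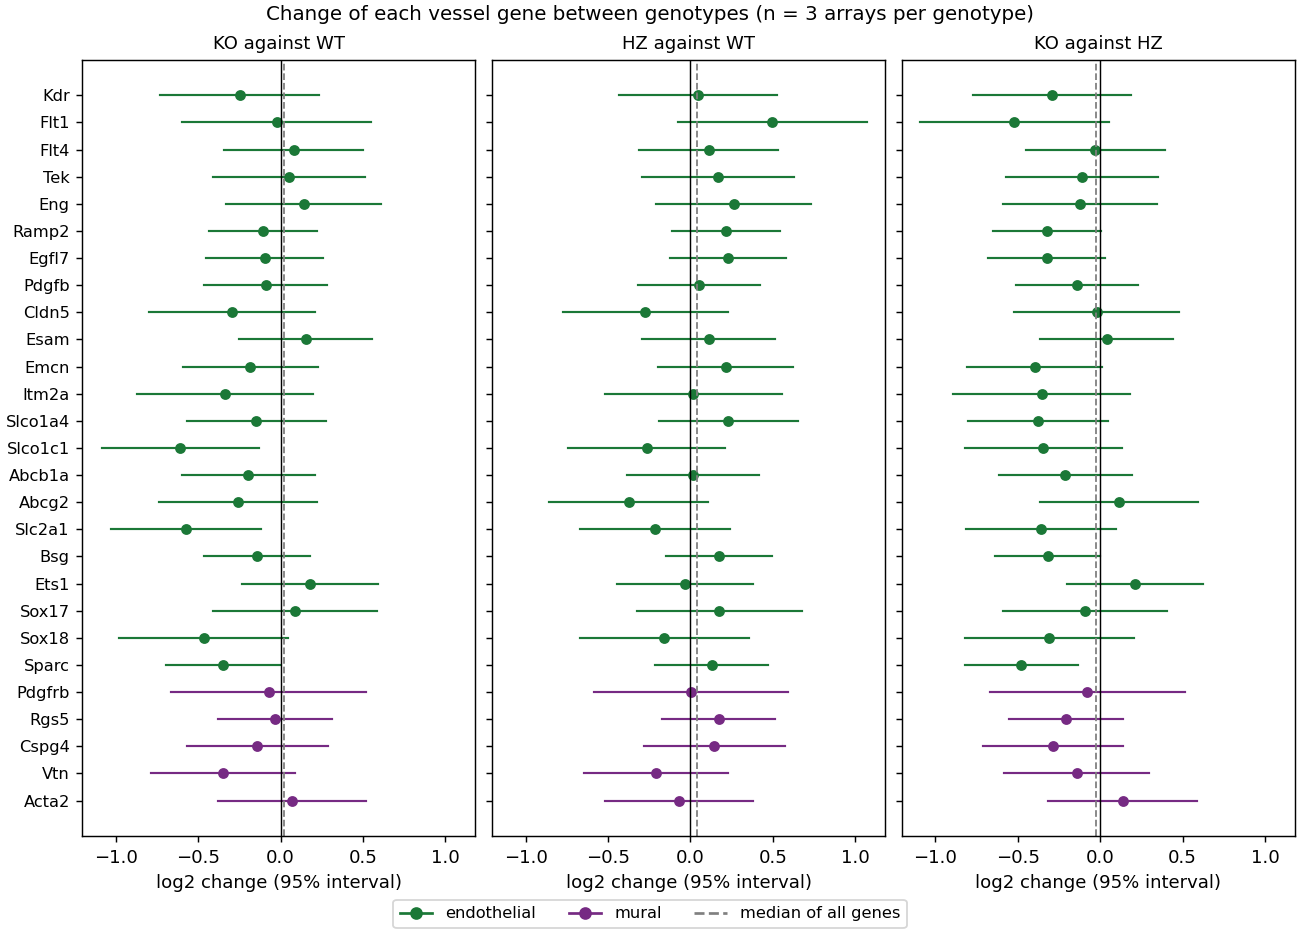
Log2 change of each of the 27 vessel genes between 2 genotypes, with its 95% interval from limma (n = 3 arrays per genotype); green stands for endothelial and purple for mural genes, and the dashed line for the median of all 8503 genes. For KO against WT the intervals of Slco1c1, Slc2a1 and Sparc lie below 0, for KO against HZ that of Sparc, and for HZ against WT every interval spans 0.

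The 6 genes of transport at the blood-brain barrier, Bsg included, all had a lower mean in KO than in WT (median log2 change -0.23). Against HZ 5 of 6 had a lower mean in KO (-0.33). Of all genes 46.4% were lower in KO than in WT and 54.9% lower than in HZ. Slc2a1 encodes GLUT1, the glucose transporter of the barrier. Its signal was 450, 498 and 755 on the WT arrays, 453, 518 and 455 on the HZ arrays and 449, 299 and 366 on the KO arrays. WT 3 was high and KO 2 low, and the lowest WT array (449.6) and the highest KO array (449.0) nearly met. The log2 change in KO against WT was -0.57 (SE 0.21, 95% interval -1.03 to -0.12), with an unadjusted p of 0.0172 and a limma adjusted p of 0.537. It was -0.50 among females and -0.73 between the males, and without WT 3 it was -0.36 (unadjusted p = 0.107, adjusted p = 0.844 in limma). Without KO 2 the unadjusted p was 0.0805 (adjusted p = 0.695 in limma).

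Slco1c1 encodes OATP1C1, which carries thyroid hormone and is known in both brain endothelium and astrocytes. It was read at 1044, 660 and 1061 in WT, 1011, 642 and 642 in HZ and 538, 593 and 629 in KO. All 3 KO arrays were lower than any other array, while WT 2, HZ 2 and HZ 3 lay just above them. The log2 change in KO against WT was -0.61 (SE 0.22, 95% interval -1.09 to -0.13, unadjusted p = 0.0163, limma adjusted p = 0.537). Among females it was -0.43 and between the males -0.96. The unadjusted p rose to 0.0657 without WT 1, to 0.0707 without WT 3 and to 0.0502 without KO 1, with limma adjusted p of 0.813, 0.824 and 0.970.

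Bsg, the membrane protein basigin, which is abundant in barrier endothelium and escorts monocarboxylate transporters to the membrane, was highest in HZ. It was read at 553, 520 and 615 in WT, 649, 623 and 633 in HZ and 547, 462 and 512 in KO. Every HZ array was above every WT and every KO array, and WT and KO overlapped. In KO against HZ the log2 change was -0.32 (SE 0.15, 95% interval -0.64 to 0.00), with an unadjusted p of 0.0512 and a limma adjusted p of 0.646. Among the other pumps and carriers, Slco1a4, an organic anion carrier, was at 293, 356 and 229 in WT, 343, 348 and 332 in HZ and 256, 317 and 214 in KO. Its KO arrays were all below its HZ arrays and overlapped with WT. Abcb1a, the efflux pump P-glycoprotein, differed by -0.20 in KO against WT on the log2 scale and overlapped. Abcg2, another efflux pump, had its lowest mean in HZ (708 ± 80.1 in WT, 544 ± 74.8 in HZ and 608 ± 188 in KO, SD, n = 3), and its KO arrays spread from 396 to 754.

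**Figure D2:**
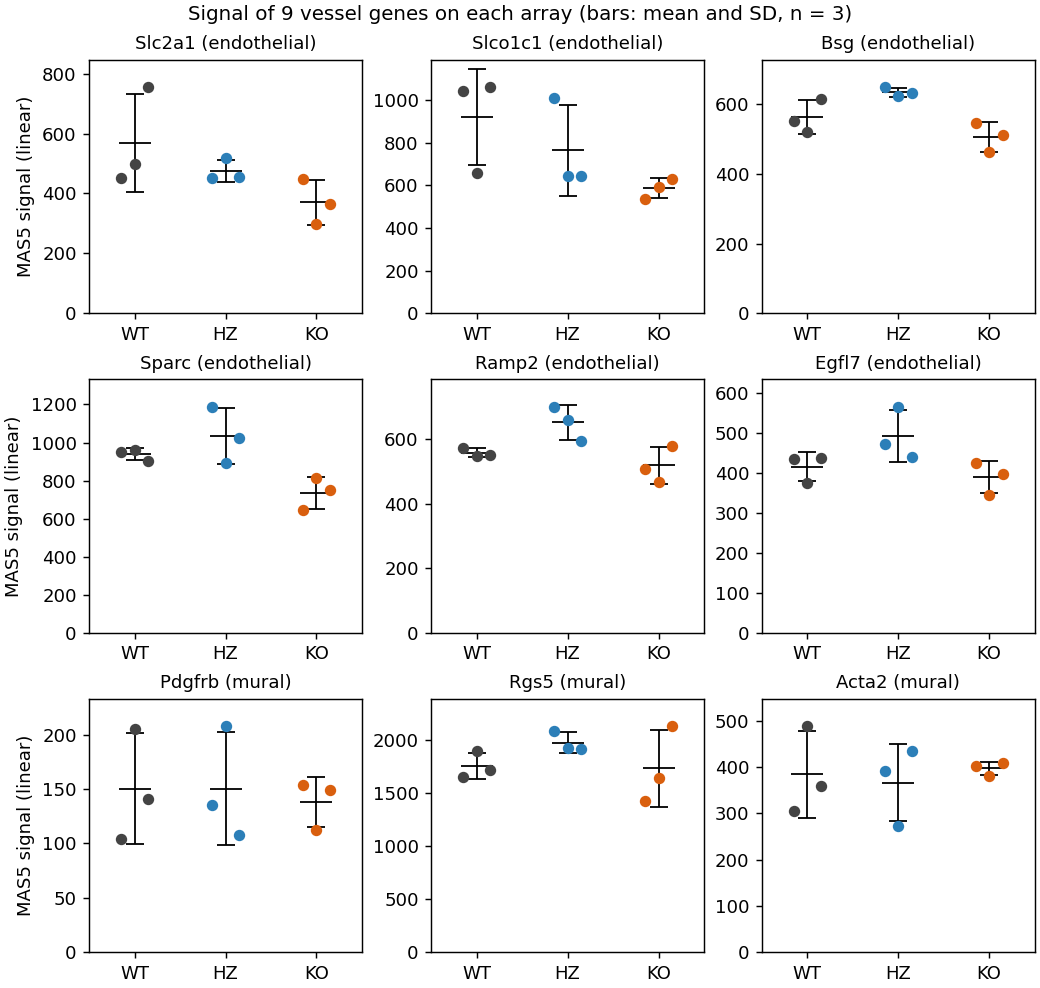
Linear MAS5 signal of 6 endothelial and 3 mural genes on each array by genotype, with the mean and SD of 3 arrays as bars. The genes were picked for display and do not stand for their classes. The KO arrays of Slc2a1, Slco1c1 and Sparc lie below the WT arrays. Those of all 6 endothelial genes shown lie below the HZ arrays, which held for 8 of the 22 endothelial genes tested. The 3 mural genes shown overlap between KO and both other genotypes, whereas Vtn, a mural gene not shown, had all KO arrays below all WT arrays.

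Sparc, a secreted matrix protein made by endothelial cells and also by astrocytes, was read at 951, 963 and 901 in WT, 1189, 892 and 1022 in HZ and 645, 814 and 748 in KO. Every KO array was below every WT and every HZ array, whereas HZ and WT overlapped. The log2 change was -0.35 in KO against WT (SE 0.16, unadjusted p = 0.0463, limma adjusted p = 0.622) and -0.48 in KO against HZ (SE 0.16, unadjusted p = 0.00995, limma adjusted p = 0.507). Within females these were -0.29 and -0.29, and between males -0.47 and -0.87. Without HZ 1 the change against HZ was -0.38 (unadjusted p = 0.0559, limma adjusted p = 0.766). Without KO 1 the change against WT was -0.26 (unadjusted p = 0.160, limma adjusted p = 0.976). The unadjusted limma p against WT was 0.0951 without WT 1, 0.0814 without WT 2 and 0.0673 without WT 3. It was 0.0736 without KO 3 and 0.0345 without KO 2. The second probe set of Sparc also had its lowest mean in KO, at -0.35 against WT and -0.30 against HZ. The other secreted protein, Vwf, the clotting factor carrier stored in endothelial cells, was left out as dim, at 73, 162 and 142 in WT, 121, 87 and 126 in HZ and 56, 67 and 108 in KO, which overlapped.

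By their brightest probe sets, growth factor receptors and other signalling genes of endothelial cells had their highest means in HZ. All 8 had a higher mean in HZ than in WT (median log2 change 0.19), where 43.3% of all genes were lower in HZ. All 8 had a lower mean in KO than in HZ (-0.22), against 54.9% of all genes. In KO against WT 5 of 8 were lower (-0.06), against 46.4%. Other kept probe sets of Egfl7 and Eng were lower in HZ than in WT, and that of Eng was 0.41 higher in KO than in HZ. Both comparisons with HZ use the same 3 HZ arrays. Ramp2, the partner of the adrenomedullin receptor that maintains vessel integrity, was read at 574, 548 and 551 in WT, 701, 660 and 594 in HZ and 507, 468 and 580 in KO. Its HZ arrays were above all others, and WT and KO overlapped. In KO against HZ it differed by -0.32 on the log2 scale (SE 0.15, unadjusted p = 0.0526, limma adjusted p = 0.652). Egfl7, a secreted factor of endothelial cells that guides vessel tube formation, was read at 436, 376 and 438 in WT, 472, 567 and 440 in HZ and 425, 346 and 398 in KO. The HZ arrays were again above all others, though HZ 3 and WT 3 differed by little. Its other 2 kept probe sets went the other way in HZ against WT (-0.24 and -0.05 against 0.23), and the brightest one carries the suffix _x_at, given to probes that can match unrelated transcripts. A further probe set of Egfl7, left out as dim, had every KO array (105, 135 and 212) above every WT array (81, 93 and 88).

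Among the receptors for vascular endothelial growth factors, Flt1 differed most between HZ and WT. Its signal was 200, 193 and 156 in WT, 281, 281 and 232 in HZ and 304, 144 and 128 in KO. The HZ arrays lay above the WT arrays, and KO held both the highest and the lowest values, with its male at 304. The log2 change in HZ against WT was 0.50 (95% interval -0.08 to 1.07). Another kept probe set of Flt1 gave 0.29 with overlap. A further probe set of Flt1, left out as dim, went the other way, with every HZ array (88, 59 and 45) below every WT array (114, 95 and 109). Its KO arrays (66, 39 and 58) were also all below its WT arrays. Kdr, the main receptor of that growth factor in endothelium, was read at 375, 316 and 433 in WT, 467, 373 and 325 in HZ and 336, 222 and 399 in KO, with the lowest value on KO 2 and overlap throughout. Flt4, the receptor of lymphatic growth factors, Tek, the receptor of angiopoietins, Eng, a co-receptor of the transforming growth factor beta family, and Pdgfb, the ligand that recruits pericytes, differed by between -0.09 and 0.14 on the log2 scale in KO against WT and overlapped. These values are of the brightest probe sets, and the second kept one of Eng went the other way. It was at 211, 209 and 225 in WT, 161, 99 and 119 in HZ and 189, 151 and 174 in KO. All its HZ and all its KO arrays were below all its WT arrays. Its log2 changes were -0.31 in KO against WT and -0.72 in HZ against WT (unadjusted p = 0.00323, limma adjusted p = 0.790), where the brighter set gave 0.14 and 0.26.

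Junction and surface genes were mixed. Itm2a, a transmembrane protein of endothelial cells, was read at 1572, 799 and 1555 in WT, 1521, 1208 and 1106 in HZ and 818, 974 and 1204 in KO. WT 2 held the lowest value and WT 1 the highest, so that the WT spread covered both other genotypes, and its second probe set pointed the other way in KO against WT (0.11 against -0.34). Emcn, a sialomucin of capillary and venous endothelium, was read at 122, 130 and 115 in WT, 134, 143 and 159 in HZ and 115, 108 and 96 in KO. These groups kept apart in the order HZ, WT and KO, but by a small margin close to the limit on dim signals. The log2 change in KO against HZ was -0.40 (unadjusted p = 0.0557, limma adjusted p = 0.660). Cldn5 differed by -0.29 in KO against WT and by -0.27 in HZ against WT with overlap, and Esam, an adhesion molecule of endothelial cells, was 0.15 higher in KO than in WT, also with overlap.

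Transcription factors of the endothelial lineage did not share a direction. Ets1 was read at 574, 473 and 781 in WT, 656, 572 and 524 in HZ and 611, 683 and 741 in KO, with overlap in every pair and a log2 change of 0.18 in KO against WT. Its second kept probe set was at 384, 349 and 595 in WT, 377, 360 and 251 in HZ and 403, 478 and 541 in KO. There every KO array was above every HZ array, with a log2 change of 0.52 (unadjusted p = 0.0379, limma adjusted p = 0.622). Sox17, an arterial factor, differed by 0.09 and Sox18, which acts in vessel and lymphatic development, by -0.47 (unadjusted p = 0.0710, limma adjusted p = 0.664). Sox18 was at 176, 217 and 222 in WT, 241, 137 and 178 in HZ and 125, 120 and 193 in KO. KO 3 was higher than WT 1, so that the groups overlapped. The kept probe set of Sox17 carries the suffix _x_at and the brightest of Ets1 the suffix _s_at, with the limits given above for Egfl7 and Acta2.

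None of the mural genes passed the threshold in any pair of genotypes. Pdgfrb, the receptor that pericytes use to sense platelet-derived growth factor B, was read at 104, 205 and 141 in WT, 135, 208 and 108 in HZ and 154, 112 and 149 in KO. Rgs5, a regulator of G protein signalling that marks pericytes, was read at 1658, 1899 and 1716 in WT, 2089, 1929 and 1918 in HZ and 1426, 1646 and 2136 in KO. Acta2, the smooth muscle actin, was read at 305, 489 and 360 in WT, 391, 273 and 434 in HZ and 402, 381 and 408 in KO. KO overlapped with both other genotypes for all 3 genes, and Rgs5 alone of them had every HZ array above every WT array. The 95% interval of the KO against WT change ran from -0.66 to 0.52 for Pdgfrb, from -0.38 to 0.31 for Rgs5 and from -0.38 to 0.52 for Acta2, and differences within these bounds could not be told from 0. These statements rest on the brightest probe sets. Another kept probe set of Rgs5 was at 743, 920 and 861 in WT, 815, 545 and 573 in HZ and 648, 680 and 662 in KO. All its KO arrays were below all its WT arrays, with log2 changes of -0.33 in KO against WT and -0.39 in HZ against WT (unadjusted p = 0.0434, limma adjusted p = 0.790). The third gave 0.33 and 0.38, in the opposite direction. Vtn, vitronectin, a matrix protein that pericytes release, was read at 252, 175 and 162 in WT, 189, 153 and 154 in HZ and 153, 153 and 137 in KO. Its KO arrays were all below its WT arrays, with WT 1 high, and the log2 change of -0.35 did not pass (limma adjusted p = 0.712). Cspg4, the proteoglycan NG2 of pericytes and of oligodendrocyte precursors, was at 212, 218 and 203 in WT, 229, 228 and 248 in HZ and 250, 143 and 189 in KO. Its HZ arrays were above its WT arrays, and the KO arrays spread over both.

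In the comparison of HZ with WT, where no member passed the limma threshold (smallest adjusted p 0.790, and 0% of all genes passed), most endothelial genes had a higher mean in HZ. Of the 22 endothelial genes 16 were higher in HZ and 6 lower, with a median log2 change of 0.11, and of the 5 mural genes 3 were higher, with a median of 0.00. Over all genes 43.3% were lower and the median was 0.04. At an unadjusted p below 0.05 there were 0 members in either direction by their brightest probe set, against 1.94% of all genes lower and 4.09% higher. Another kept probe set of Eng and 1 of Rgs5 were there, both lower in HZ. Every HZ array was above every WT array for 7 tested members (Flt1, Ramp2, Egfl7, Emcn, Bsg, Rgs5 and Cspg4) and below for none, against 9% and 4.29% of all genes. Among the genes left out as dim, Myl9 had every HZ array (69, 51 and 75) below every WT array (89, 113 and 175). Anpep, also dim, had every HZ array (84, 50 and 77) above every WT array (33, 29 and 47). The split of the endothelial genes depended on the scaling, the arrays and the probe sets used. With arrays set to 1 median, 10 of the 22 endothelial genes were lower and the median was 0.02, and without HZ 1 the median was also 0.02 with 10 lower. Without WT 2 the median was 0.05 with 10 lower, and with the mean of all kept probe sets 0.05 with 8 lower. The mural median ran from -0.03 to 0.17 when single arrays were left out, and was highest without WT 2. When the dim genes were taken in, 10 of 28 endothelial genes were lower in HZ (median 0.06) and 5 of 9 mural genes (-0.07). Of all genes on the array 41.1% were lower. At an unadjusted limma p below 0.05, 1 mural gene was then lower, against 243 of the 12393 genes.

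Between KO and HZ the endothelial median lay farthest from 0 of the 3 pairs, and again no member passed (smallest limma adjusted p 0.507, with 0.0118% of all genes past the threshold). Of the 22 endothelial genes 19 were lower in KO, with a median log2 change of -0.30, and of the 5 mural genes 4 were lower, with a median of -0.14. Over all genes 54.9% were lower and the median was -0.03. By its brightest probe set, Sparc was the 1 tested member at an unadjusted p below 0.05 in the lower direction, against 4.08% of all genes. No tested member was there in the higher direction, against 3.56%. Of the other kept probe sets, 1 of Ets1 was there in the higher direction and 1 of Slc2a1 in the lower one. All KO arrays were below all HZ arrays for 8 endothelial genes, Ramp2, Egfl7, Emcn, Slco1a4, Slco1c1, Slc2a1, Bsg and Sparc, and for 0 of the 5 mural genes, against 8.07% of all genes. By the brightest probe sets no tested member had all KO arrays above all HZ arrays, against 6.47%. Myl9, a mural gene left out as dim, had them above, at 104, 108 and 114 in KO and 69, 51 and 75 in HZ. The endothelial median was -0.19 without HZ 1 and -0.19 without KO 2, and -0.14 without both. With the mean of all kept probe sets in place of the brightest, it was -0.20. When the dim genes were taken in, 22 of 28 endothelial genes were lower in KO (median -0.29) and 7 of 9 mural genes (-0.10). Of all genes on the array 55.8% were lower. At an unadjusted limma p below 0.05, 3 endothelial genes were then lower and 1 mural gene higher, against 514 and 395 of the 12393 genes. Among the 22 endothelial genes tested, only Abcg2, Ets1 and Esam were higher in KO than in HZ. The KO mean was the lowest of the 3 genotypes for 15 of 22 endothelial and 4 of 5 mural genes, against 34.2% of all genes. Because the members were chosen with earlier results of these data known, these counts are described and not tested against those shares.

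**Figure D3:**
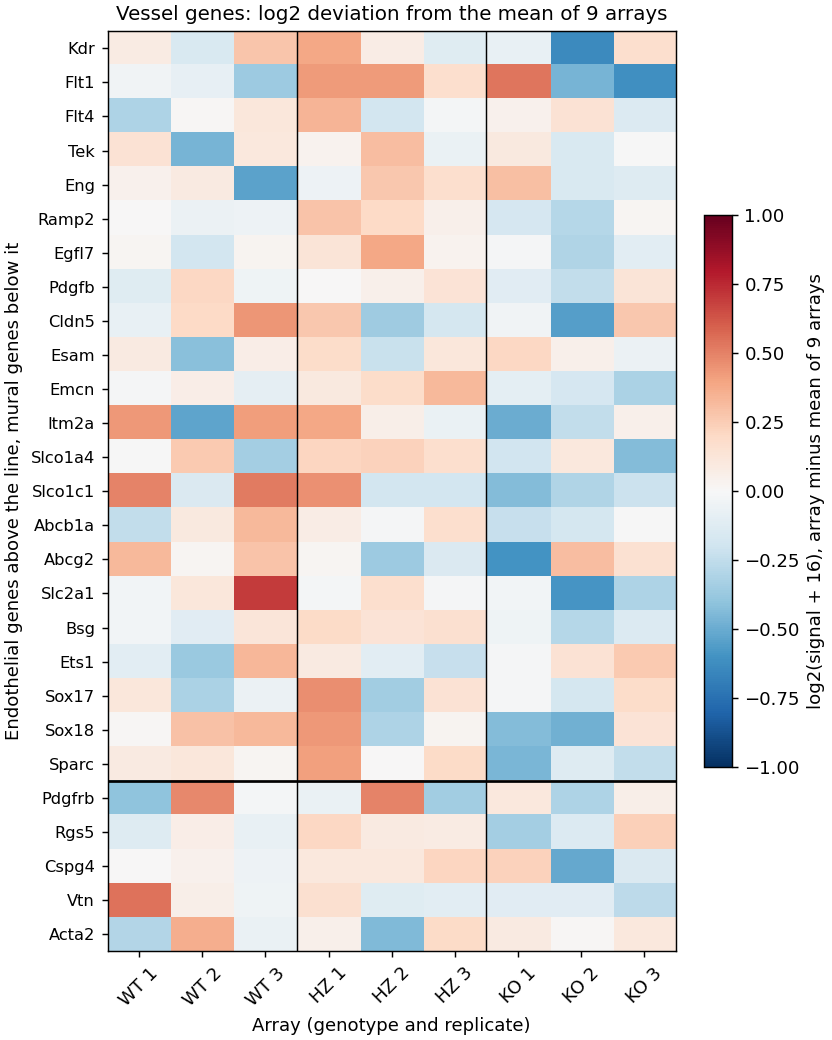
Deviation of log2(signal + 16) from the mean of 9 arrays for each of the 27 vessel genes (22 endothelial above the line, 5 mural below) on each array, red for higher and blue for lower. HZ 1 is red for most endothelial genes and KO 2 blue.

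Taken array by array, the endothelial and mural genes could be set side by side. The median deviation of the 22 endothelial genes from their mean over 9 arrays was 0.01, -0.03 and 0.11 on the WT arrays, 0.20, 0.05 and 0.04 on the HZ arrays and -0.06, -0.21 and -0.03 on the KO arrays (log2 scale). All KO arrays were below 0 and all HZ arrays above it. For the 5 mural genes it was -0.13, 0.07 and -0.05 in WT, 0.11, 0.09 and 0.08 in HZ and 0.09, -0.14 and 0.06 in KO, so that 2 of the 3 KO arrays were above 0. The endothelial median was below the mural one on all 3 KO arrays (differences of -0.14, -0.08 and -0.09), on 2 of the 3 HZ arrays and on 1 of the 3 WT arrays. Since these genes were chosen with results of these arrays known, and only 5 mural genes were measured, this difference is described and not tested. HZ 1 had the highest endothelial median, with 20 of 22 genes above their mean, and KO 2 the lowest, with 5 of 22. KO 2 held the lowest value of 9 of the 27 members and the highest of none, while HZ 1 held the highest value of 7 and the lowest of none.

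**Figure D4:**
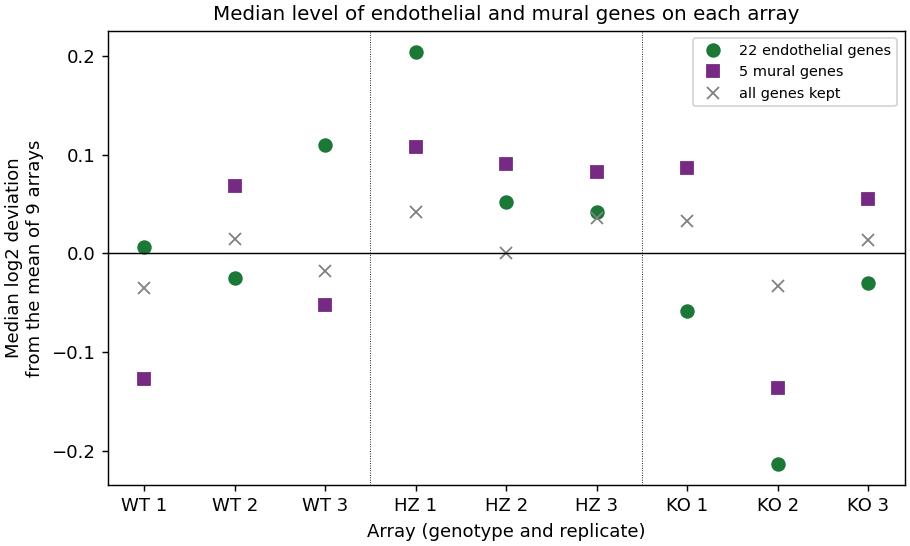
Median log2 deviation of the endothelial genes (circles), the mural genes (squares) and all genes tested (crosses) on each array, from each gene's mean over 9 arrays. Endothelial medians run from -0.21 on KO 2 to 0.20 on HZ 1, and on the KO arrays each circle lies below its square.

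Within genotypes, the vessel genes did not rise and fall together to any large extent. After the genotype means were removed, the median pairwise correlation over the 9 arrays was 0.11 among the 22 endothelial genes (Spearman 0.13, 231 pairs), 0.02 among the 5 mural genes (10 pairs) and 0.07 between the classes (110 pairs). Over all pairs of the 8503 genes it was 0.02. The points share arrays and their scaling, and a correlation over 9 arrays with genotype removed is imprecise. With sex removed as well, the endothelial value was 0.0012, and without WT 1 it was 0.21. The scatter of a member over the 9 arrays, as SD over mean of the linear signal, ran from 10.6% for Pdgfb to 30.4% for Flt1.

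Several genes had more than 1 kept probe set, and these did not always agree in direction. Of the 8 such genes, 4 (Egfl7, Slc2a1, Ets1 and Sparc) had probe sets of 1 direction in KO against WT, and Flt1, Eng, Itm2a and Rgs5 did not. In HZ against WT the sets of Eng, Egfl7, Sparc and Rgs5 differed in direction, and in KO against HZ those of Eng, Slc2a1 and Rgs5. For Slc2a1 the other 2 probe sets gave -0.65 (unadjusted p = 0.0243, limma adjusted p = 0.574) and -0.09 in KO against WT, and -0.55 and 0.15 in KO against HZ.

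Other vessel genes of a wider list, 119 genes of endothelium, mural cells, angiogenic signalling and basement membrane, were looked up as well. Of these 108 were on the array and 72 were bright enough, and 0 passed the limma adjusted threshold in any pair. In KO against WT 32 were lower (44.4%, against 46.4% of all genes) and 40 higher, with a median log2 change of 0.06. At an unadjusted p below 0.05 there was 1 in each direction, against 3.74% of all genes lower and 4.41% higher. In KO against HZ 35 were lower (48.6%, against 54.9% of all genes) and 37 higher (median 0.01). In HZ against WT 27 were lower (37.5%, against 43.3%) and 45 higher (0.08). At an unadjusted p below 0.05, 3 were lower and 4 higher in KO against HZ, against 4.08% and 3.56% of all genes. In HZ against WT 2 were lower and 2 higher, against 1.94% and 4.09%. Among the endothelial genes of that list 15 of 25 were lower in KO than in WT and 15 of 25 lower than in HZ, with medians of -0.03 and -0.08. The 11 mural genes had medians of 0.06 and -0.17. Of the 28 angiogenic ligands and receptors 10 were lower and 18 higher in KO, both against WT (median 0.12) and against HZ (0.04), and of the 8 basement membrane genes 3 were lower and 5 higher in both (0.03 and 0.09).

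The leading genes of the wider list came from several roles. Pltp, a phospholipid transfer protein, was read at 466, 778 and 792 in WT, 620, 914 and 669 in HZ and 571, 355 and 389 in KO. Its KO arrays were below all HZ arrays and overlapped with WT, with log2 changes of -0.73 against HZ (limma adjusted p = 0.507) and -0.60 against WT (0.580), and its second probe set also had a lower mean in KO (-0.44 and -0.35). Cxcl12, a chemokine that guides vessels and neurons, was read at 357, 311 and 297 in WT, 159, 246 and 167 in HZ and 303, 416 and 532 in KO. HZ was below both other genotypes on every array, by -0.73 against WT (limma adjusted p = 0.790), and KO was 1.06 above HZ (0.250). Its second probe set gave 0.50 and -0.13 for these comparisons, in the opposite direction. Lama5, a laminin chain of vessel basement membrane, was 0.57 higher in KO than in HZ without overlap. Nr2f2, a factor of venous identity, was 0.85 higher in KO than in WT, and Jag2, a Notch ligand, 0.33 higher, both with overlap. In HZ against WT, Tpm2, a tropomyosin, was 0.52 higher without overlap, and Ctla2a, a protease inhibitor-like protein, had a log2 change of -0.51 with overlap.

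Markers of other cell types in the dissected layer also differed between arrays. The summed signal of 13 astrocyte markers was 16804, 22367 and 20193 in WT, 15963, 17150 and 16571 in HZ and 13106, 16644 and 12583 in KO. All KO arrays were below all WT arrays, KO 2 by a small margin, and KO and HZ overlapped. Of the 10 astrocyte markers tested 9 were lower in KO than in WT (median log2 change -0.35) and 6 of 10 lower than in HZ (-0.24), none past the threshold. The changes reached -1.04 and -0.88, with smallest limma adjusted p of 0.114 and 0.205. At an unadjusted p below 0.05, 5 were lower in KO than in WT and 3 lower than in HZ, and 0 higher. Among the 22 endothelial genes 3 and 1 were lower there, and among all genes 3.74% and 4.08%. The part of astrocytes in the values of Slco1c1, Slc2a1 and Sparc was not tested. Microglial markers (13 genes) summed to 3940 on WT 2 and to 1688 to 2449 on the other arrays, and neuron markers (12 genes) to 22290 on KO 1 and 27667 to 32487 on the others. The 4 microglial markers tested were all lower in KO than in WT (median log2 change -0.37) and than in HZ (-0.26). In KO against HZ, where the endothelial median was -0.30, 9 of 12 neuron markers (-0.18) and 5 of 7 oligodendrocyte lineage markers (-0.27) were lower as well. Against WT these were 6 of 12 (-0.08) and 2 of 7 (0.11). The part of these cell types in the endothelial values was not tested. Meningeal fibroblast markers (13 genes) summed to 2003 to 2295 in WT, 1671 to 2204 in HZ and 1692 to 2831 in KO, which overlapped. Oligodendrocyte lineage markers (8 genes) ranged from 3631 on KO 1 to 7199 on WT 2, and choroid plexus and ependymal markers (5 genes) from 293 to 560. The 6 red cell markers on the array were all too dim to be tested, at a sum of 280 to 593, and the main adult beta globins were not analysed here. The summed signal of the 28 endothelial genes was 10556, 9345 and 11635 in WT, 11739, 9844 and 9951 in HZ and 8760, 8541 and 9689 in KO, and that of the 9 mural genes 2731, 3237 and 2890, 3295, 2935 and 3078, and 2588, 2752 and 3226. KO 3 was above WT 2 in the endothelial sum, and the mural sums overlapped throughout.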

How the data were processed

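Layer IV RNA of 9 mice, 1 array each, was measured on Affymetrix mouse arrays of 22690 probe sets (64 controls). The deposited values are linear intensities that the authors made, per the submitters' processing notes, with MAS5 and Affymetrix Expression Console. The tools' versions and target level were not given in the sources used here. On every array the mean after trimming 2% at each end was 500.2, so the intensities had been scaled to 1 level. MAS5 intensities of dim probe sets are noisy.

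Samples were grouped by their titles. Values were taken as log2(intensity + 16), which understates changes of dim genes. The brighter 60% of probe sets (13576, lowest geometric mean 116.8) were fitted with limma 3.58.1 in R 4.3.3 (genotype only, all 9 arrays, eBayes with an intensity trend, 2-sided), with Benjamini-Hochberg adjustment over all of them and a threshold of 0.05. The procedure was tested on simulated data. A gene stands for its brightest probe set. Genes were named from the platform annotation.

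The members and gene lists were chosen with earlier results of these data known. Full statistics are given for members at an unadjusted p below 0.05, with those just above it added after their values were seen. Array values are given for the brightest member of each role, for Pecam1, Cldn5, Pdgfrb, Rgs5 and Acta2, and for further members chosen after their values were seen. Of the other vessel genes, the 3 of smallest p in each pair are named. Replicate numbers were not used to pair the arrays.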

Additional observations from a re-analysis of the deposited data

How the results depend on the processing

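No member and no gene of the wider vessel list passed the adjusted threshold under any of the 24 alternatives (pseudocount, filter, scaling, trend, array weights, genotypes fitted, replicate block, sex, 3′/5′ ratio, probe set rule, arrays left out). The unadjusted p stayed below 0.05 in 20 of 24 for Slc2a1 and 21 for Slco1c1 (KO against WT), and in 10 and 23 for Sparc (against WT and HZ). For Ramp2 and Bsg in KO against HZ, above 0.05 as reported, it was below 0.05 in 6 and 7. These counts include alternatives that cannot move a log2 change, such as an array of the third genotype left out, so they do not measure robustness. The smallest adjusted p among these genes was 0.231, for Slco1c1 with array weights. 2 alternatives were chosen after seeing the data. Without WT 2 and KO 2 the median log2 change was -0.19 for endothelial genes in KO against HZ, 0.17 for mural genes in HZ against WT and 0.065 for mural genes in KO against WT. Without HZ 1 and KO 2, endothelial medians were 0.022 (HZ against WT), -0.14 (KO against HZ) and -0.055 (KO against WT), and the mural median in KO against WT 0.043. With 1 array left out at a time, endothelial medians ran from 0.022 to 0.15 (HZ against WT), -0.32 to -0.19 (KO against HZ) and -0.17 to -0.055 (KO against WT), and mural ones from -0.028 to 0.17, -0.23 to -0.10 and -0.15 to 0.043. The mean of all probe sets gave -0.20 for endothelial genes in KO against HZ. Mural medians in HZ against WT were -0.10 with quantile normalization and 0.13 with array weights, and in KO against HZ -0.035 with the highest 40% of probe sets, which left 2 mural genes. The mural median correlation was 0.29 with that filter (1 pair) and -0.16 without WT 2 and KO 2. For each of these the cause was not tested. The replicate block brought no member past the adjusted threshold, and cannot move a log2 change when every number occurs once per genotype. With it the unadjusted p of Sparc in KO against WT was 0.0782 (limma adjusted p = 0.727), and median correlations were 0.058 (endothelial), 0.15 (mural) and -0.021 (between classes). After the genotype means were removed, same-numbered arrays of different genotypes correlated at -0.26 to 0.11 and differently numbered ones at -0.15 to 0.20. So few values cannot show whether a number marks a litter or batch, which the labels do not give. The numbers were not used to pair arrays.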
